A study of Mus musculus with 8 samples.

Results

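Heat shock chaperones of the cytosol, nucleus and mitochondria, with their co-chaperones and the heat shock factors, were followed in mouse 3T3-L1 cells as a list of 38 genes. The list was drawn up by gene symbol, and a gene was kept where, in at least 1 group, both arrays measured its brightest probe well above background. Of the 38 genes, 36 had a named probe and all 36 met this requirement, out of 25804 genes and unnamed probes measured in the series, 13796 of them named. Hspa1b and Dnajb5 had no probe that could be named here and were not analysed here. Of the 36, 35 were well above background on all 8 arrays. Hspb1 was above background on 5 arrays and entered through the 3 h groups, where it was brighter.

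3T3-L1 is a mouse fibroblast line that turns into fat-like cells, and it had been kept for 1 week in adipogenic medium. The cells then received 2-fold diluted medium from human HL-60 leukemia cells that had been cultured for 5 days with 30 nM of the phorbol ester PMA, which makes them macrophage-like. The study asked what the medium of HL-60 cells with USP2, a ubiquitin protease, knocked down does to 3T3-L1 transcripts. The 4 groups were knockdown supernatant for 6 h, control supernatant for 6 h, knockdown supernatant for 3 h and control supernatant for 3 h, with 2 one-colour arrays each. Control supernatant came from HL-60 cells carrying a mock vector, and both kinds were made in medium with PMA. Untreated 3T3-L1 cells were not analysed here, so neither supernatant is set against a resting state. USP2 was knocked down in the donor HL-60 cells, and no probe of the mouse cells checks that. Nothing in the labels says whether the 2 cultures of a group received separate supernatant preparations, so the p-values cover only the spread among these cultures, which may be technical.

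HSP70 proteins bind unfolded stretches of other proteins in a cycle driven by ATP. J-domain proteins deliver clients to them and start ATP hydrolysis, while HSP110 and BAG proteins exchange the nucleotide and so release the client. HSP90 with its co-chaperones completes the folding of kinases and receptors, small heat shock proteins hold unfolding proteins, and the chaperonins enclose a client in a barrel. The factor HSF1 binds repeated nGAAn units, called heat shock elements, upstream of many of these genes and raises their transcription when proteins unfold.

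Each array held 59305 non-control spots, of which 50.7% to 55.9% were well above background and 0 were saturated. Replicate arrays correlated across genes at 0.993 with knockdown and 0.988 with control supernatant at 6 h, and at 0.998 with knockdown and 0.997 with control supernatant at 3 h. Patches of raised spots covered 1.41% and 1.71% of the control 6 h arrays and at most 0.44% of any other array. They touched Hspb8 on a knockdown 6 h array and Cct3 on a control 6 h array, and masking them changed no call of the 36 genes. Every array measured 8 of 16 adipocyte markers well above background, including Pparg, Fabp4 and Cebpa, and no array did so for 7, including Adipoq, Cfd and Slc2a4. All 9 preadipocyte and fibroblast markers were above background on all 8 arrays. Of 7 macrophage and leukocyte markers with a probe, 4 were above background on all 8 arrays (Csf1r, Itgam, Lyz2 and Cd14). The other 3, Ptprc, Adgre1 and Tyrobp, were so on none. Of 8 endothelial and muscle markers, 4 were above background on all 8 arrays (Pecam1, Kdr, Acta1 and Des) and 4 on none. On the single slide, the 3 h arrays lay in row 1 and the 6 h arrays in row 2, with control supernatant in columns 1 and 2 and knockdown supernatant in columns 3 and 4. Time therefore cannot be told apart from slide row, nor supernatant from slide column.

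No gene of the chaperone list passed the test between knockdown and control supernatant, at either time. The test was limma's moderated test with Benjamini-Hochberg adjustment over all 25804 genes and probes, and a gene passed at an adjusted p under 0.05. At 6 h 0 of 36 genes passed, where 2.22% of all genes and probes did. At 3 h the count was 0 of 36, against 0.248% of all. Averaged over both times it was again 0 of 36, against 3.06% of all. The difference between the effects at 6 h and at 3 h gave 0 of 36, against 0.0% of all. At an unadjusted p under 0.05, 8 of the 36 genes passed at 6 h, 2 at 3 h, 4 for the average and 0 for the difference. Among all 25804 the corresponding numbers were 4905, 2740, 5072 and 2224.

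The intervals bound how large a difference these arrays leave room for under the scaling of the fit reported. They do not include the uncertainty of that scaling, so the counts below hold for it alone. At 6 h the median difference of the 36 genes was 0.29 with arrays scaled by their median. It was -0.03 with arrays scaled by added spike-in transcripts. The 95% interval of the knockdown minus control difference lay within 2-fold in either direction for all 36 genes at 3 h. At 6 h it did so for all 35 genes above background on the 4 arrays compared, which leaves out Hspb1. It lay within 0.5 on the log2 scale for 34 genes at 6 h and for 33 at 3 h. The widest interval at 3 h was that of Hspb1, from -0.62 to 0.66, and at 6 h that of Hspa8, from -0.34 to 0.36. At 6 h the fitted differences ran between -0.05 for Hsf2 and 0.27 for Hspa13, and 30 of 36 were above 0. Their median was 0.10 on the log2 scale, against -0.01 for all genes and probes. At 3 h the range was -0.27 for Hsf2 to 0.21 for Hspa8, with 24 of 36 above 0 and a median of 0.02, against -0.02 for all.

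**Figure D1:**
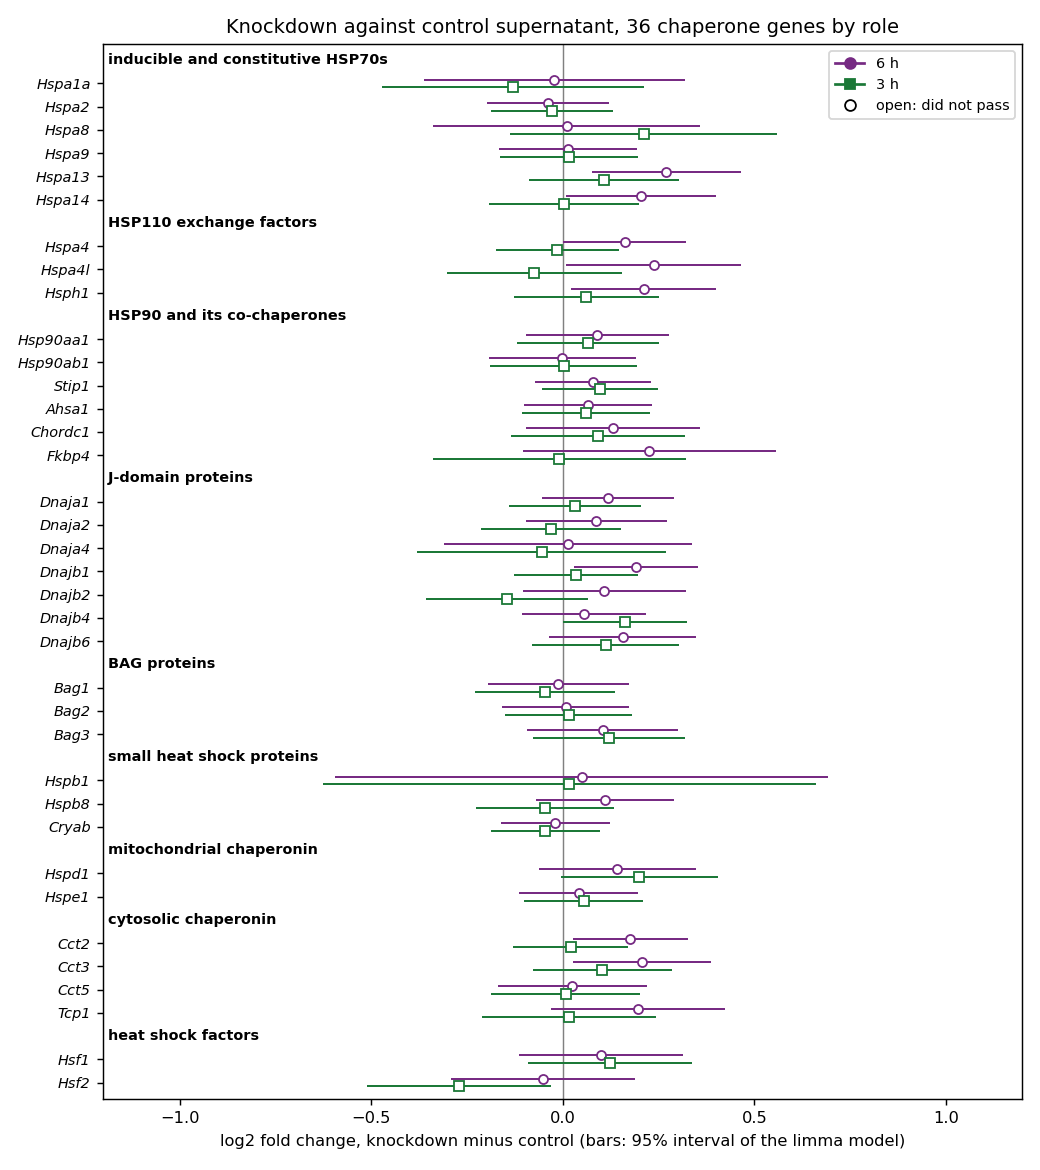
Log2 fold change of knockdown over control supernatant at 6 h (circles) and at 3 h (squares) for the 36 chaperone genes, grouped by role, with the 95% interval of the limma model as bars. All symbols are open because no gene passed, and the fitted values lie between -0.27 and 0.27.

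Values on each array show how small these differences were. Below, a level is a probe's log2 signal relative to the 75th percentile of its array, and levels of different genes are not comparable. Hspa13, a microsome-associated HSP70 relative, had the smallest p at 6 h. Its level was 2.66 and 2.64 with knockdown supernatant, against 2.32 and 2.43 with control supernatant at 6 h. At 3 h it was 2.47 and 2.48 with knockdown supernatant, against 2.44 and 2.29 with control supernatant. The groups did not overlap at either time, and the difference at 6 h was 0.27 ± 0.08 (log2, SE, n = 2 each; limma adjusted p = 0.159). Hsf2, the heat shock factor better known from development than from the stress response, had the smallest p at 3 h. Its level was -0.26 and -0.40 with knockdown supernatant, against -0.09 and -0.04 with control supernatant at 3 h. The 3 h difference of -0.27 ± 0.10 (SE, n = 2 each) had a limma adjusted p of 0.41, and at 6 h the 2 groups overlapped.

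The other genes with an unadjusted p under 0.05 at 6 h were Dnajb1, Cct2, Cct3, Hsph1, Hspa14, Hspa4l and Hspa4. All 7 were higher by fitted value, with differences of 0.16 to 0.24 on the log2 scale and limma adjusted p between 0.204 and 0.253. Dnajb1, the principal J-domain partner of cytosolic HSP70, had 5.18 and 5.14 with knockdown supernatant, against 4.99 and 4.95 with control supernatant at 6 h. Hspd1, the mitochondrial HSP60, was fitted at 0.14 ± 0.08 at 6 h and 0.20 ± 0.08 at 3 h (log2, SE, n = 2 each). Its average difference of 0.17 had a limma adjusted p of 0.192. For the HSP90 gene Hsp90ab1 the fitted differences were -0.00 at 6 h and 0.00 at 3 h, each with a standard error of 0.08.

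The absence of calls at 6 h depended on the scaling of the arrays and on 1 array. Scaling by the median of an array, not by its 75th percentile, raised the median difference of all genes and probes to 0.18. Then 4 of the 36 genes passed as higher, against 1237 of all 25804 genes and probes. The 4 were Dnajb1, Dnajb6, Hspa14 and Hspa4, with limma adjusted p between 0.0457 and 0.0495. Calls also appeared without the second control 6 h array, a fit with 1 control array at that time. Fkbp4 then stood at 0.42 and Hspa4l at 0.36 (log2). Calls among all genes and probes rose as well, to a larger share than among the 36 genes. With spike-in scaling the median difference at 6 h was -0.03 for the 36 genes and -0.14 for all, so the side of 0 on which the list lay changed with the scaling. The 8 added spike-in transcripts themselves differed by a median of 0.14 at 6 h between knockdown and control arrays.

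Between 6 h and 3 h most chaperone genes that passed were lower at the later time. With knockdown supernatant 12 of 36 genes fell and 2 rose, where 22.6% of all genes and probes fell and 17.5% rose. With control supernatant 14 of 36 fell and 0 rose, where 23.4% of all fell and 16.3% rose. These comparisons use different arrays, and the same 12 genes fell in both: Bag3, Dnajb1, Dnajb4, Dnajb6, Dnaja1, Dnaja2, Chordc1, Hspb8, Hsf1, Hspa9, Hsph1 and Hspa4. They made up 33.3% of the 36 genes, while 17.9% of all genes and probes fell in both. The median change of the 36 genes was -0.09 with knockdown and -0.16 with control supernatant, against -0.11 with knockdown and -0.07 with control supernatant for all genes and probes. Another 20 of the 36 passed in neither supernatant. In whole cultures, less transcript per cell and fewer cells that carry it cannot be told apart.

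**Figure D2:**
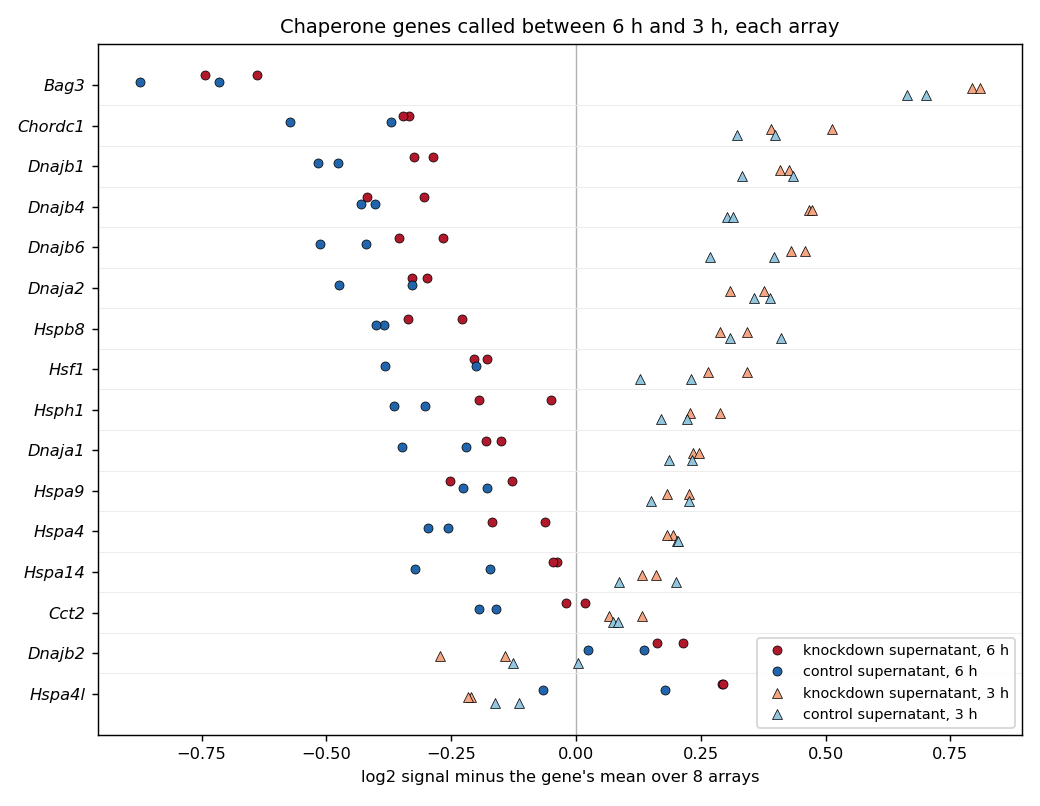
Log2 signal on each of the 8 arrays for the 16 chaperone genes called between 6 h and 3 h in either supernatant, drawn relative to each gene's own mean over the 8 arrays. For the upper 12 genes and for Hspa14 and Cct2 below them, all 6 h arrays (circles) lie left of all 3 h arrays (triangles). At the bottom the order is turned for Dnajb2 and Hspa4l with both supernatants.

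Bag3 fell the most of the 36 genes in both supernatants. It encodes a co-chaperone that links HSP70 to small heat shock proteins and to selective autophagy. With knockdown supernatant its level was 2.82 and 2.93 at 6 h, against 4.36 and 4.38 at 3 h. With control supernatant it was 2.85 and 2.69 at 6 h, against 4.23 and 4.27 at 3 h. The 6 h and 3 h arrays were far apart, while the arrays of the 2 supernatants overlapped at 6 h and lay 0.12 apart on average at 3 h. Bag3 was 2.81-fold lower with knockdown supernatant (log2 -1.49 ± 0.08, SE, n = 2 each; limma adjusted p = 0.000165). It was 2.78-fold lower with control supernatant (log2 -1.48 ± 0.08, SE, n = 2 each; limma adjusted p = 0.000158). The related Bag1 and Bag2 did not pass, although with median scaling both passed as lower with control supernatant, at -0.27 and -0.33 (limma adjusted p = 0.0475 and 0.0385). Bag1 stood at -0.06 with knockdown and -0.09 with control supernatant, and Bag2 at -0.17 with knockdown and -0.16 with control supernatant (log2).

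Of the 7 measured J-domain genes, 5 fell in both supernatants, where 17.9% of all genes and probes did. Dnajb1 had 5.18 and 5.14 at 6 h, against 5.87 and 5.89 at 3 h with knockdown supernatant. Cells given control supernatant had 4.99 and 4.95 at 6 h, against 5.90 and 5.79 at 3 h. No 6 h array reached the 3 h arrays. The changes were -0.72 ± 0.06 with knockdown supernatant and -0.88 ± 0.06 with control supernatant (log2, SE, n = 2 each; limma adjusted p = 0.000644 and 0.000332). Dnajb4, a close relative of Dnajb1, had -0.08 and 0.04 at 6 h, against 0.81 and 0.82 at 3 h with knockdown supernatant. Under control supernatant it was -0.06 and -0.09 at 6 h, against 0.65 and 0.66 at 3 h. These groups were likewise apart, by -0.83 ± 0.06 with knockdown and -0.72 ± 0.06 with control supernatant (log2, SE, n = 2 each; limma adjusted p = 0.00042 and 0.000594).

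Dnajb6, a J-domain protein known for holding back aggregation of polyglutamine proteins, fell by 0.76 with knockdown and 0.80 with control supernatant on the log2 scale. All 4 of its probes fell, by 0.52 to 0.91 with knockdown and by 0.77 to 0.91 with control supernatant. Dnaja2 fell by 0.66 with knockdown and 0.77 with control supernatant, and its dimmer second probe by 0.97 with knockdown and 1.01 with control supernatant. Dnaja1 fell by 0.41 with knockdown and 0.49 with control supernatant. Its second probe, which was dim, did not pass and stood at 0.16 with knockdown and 0.36 with control supernatant, so the call for Dnaja1 rests on the brightest probe. Dnajb2, which feeds ubiquitinated clients to the proteasome, rose by 0.40 ± 0.08 with knockdown supernatant (log2, SE, n = 2 each; limma adjusted p = 0.014). With control supernatant Dnajb2 stood at 0.14 (limma adjusted p = 0.247), and the difference between the 2 changes did not pass (limma adjusted p = 0.625). The call for Dnajb2 was lost without the first knockdown 3 h array or the first knockdown 6 h array (limma adjusted p = 0.0824 and 0.0709). Dnaja4, an inducible member, was at 0.10 with knockdown and 0.03 with control supernatant.

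Of the 3 HSP110 genes, whose products exchange nucleotide on HSP70, 2 fell in both supernatants and 1 rose with knockdown supernatant. Of all genes and probes, 17.9% fell in both and 17.5% rose with knockdown supernatant. Hsph1, the inducible HSP105, had 3.31 and 3.45 at 6 h, against 3.73 and 3.79 at 3 h with knockdown supernatant. Control supernatant gave 3.14 and 3.20 at 6 h, against 3.67 and 3.73 at 3 h. It fell by 0.38 with knockdown and 0.53 with control supernatant on the log2 scale (limma adjusted p = 0.0107 and 0.00302), and both of its probes fell. Hspa4 fell by 0.30 with knockdown and 0.48 with control supernatant (limma adjusted p = 0.0131 and 0.00235). Its 2 dimmer probes were above 0 without passing, at 0.16 and 0.09 with knockdown supernatant and at 0.37 and 0.54 with control supernatant. Averaged over its probes, Hspa4 stood at 0.14 with control supernatant, the opposite direction.

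Hspa4l had 3.22 and 3.22 at 6 h, against 2.72 and 2.71 at 3 h with knockdown supernatant. In control supernatant the level was 2.86 and 3.11 at 6 h, against 2.77 and 2.82 at 3 h. It rose by 0.51 ± 0.09 with knockdown supernatant (log2, SE, n = 2 each; limma adjusted p = 0.00755) and stood at 0.19 ± 0.09 with control supernatant (adjusted p = 0.152). Without the first control 6 h array Hspa4l passed with control supernatant too, at 0.32 (limma adjusted p = 0.02). The difference between the 2 changes, 0.31 ± 0.13, did not pass (limma adjusted p = 0.586). Leaving out single arrays ended 2 further calls with knockdown supernatant. Hsph1 was lost without the second 3 h or the first 6 h array of that supernatant (limma adjusted p = 0.0663 and 0.0554). Hspa4 was lost without either 3 h array or the second 6 h array of that supernatant, with limma adjusted p between 0.0641 and 0.0719.

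Among the 6 measured HSP70 genes only Hspa9 passed in both supernatants, where 17.9% of all genes and probes fell in both. Hspa9 encodes mortalin, the HSP70 of the mitochondrial matrix, and had 5.42 and 5.54 at 6 h, against 5.90 and 5.85 at 3 h with knockdown supernatant. Cells given control supernatant had 5.49 and 5.44 at 6 h, against 5.82 and 5.90 at 3 h. The arrays of the 2 times did not overlap, and the change was -0.39 ± 0.07 in both (log2, SE, n = 2 each; limma adjusted p = 0.00776 with knockdown and 0.00783 with control supernatant). Without the first knockdown 3 h array the limma adjusted p with knockdown supernatant was 0.0522. Hspa14, part of the ribosome-associated chaperone complex, fell by 0.39 with control supernatant (limma adjusted p = 0.0106) and stood at -0.19 with knockdown supernatant (adjusted p = 0.107). The difference between these changes did not pass (limma adjusted p = 0.652), and the call was lost without the first control 3 h array (adjusted p = 0.0647).

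The stress-inducible Hspa1a and the constitutive Hspa8 did not pass in either supernatant. Hspa1a had -1.63 and -1.44 at 6 h, against -1.41 and -1.55 at 3 h with knockdown supernatant. Under control supernatant it was -1.68 and -1.35 at 6 h, against -1.42 and -1.28 at 3 h. The arrays of the 2 times overlapped, and the 95% intervals of the change ran from -0.39 to 0.28 with knockdown and from -0.50 to 0.17 with control supernatant. Hspa1a has a near-identical copy, Hspa1b, so its probe may read both. The brightest Hspa8 probe stood at -0.09 with knockdown and 0.11 with control supernatant (log2), and the other 2 Hspa8 probes lay below 0 in both without passing. Hspa2, best known from testis, was at 0.05 with knockdown and 0.06 with control supernatant, and Hspa13 at 0.17 with knockdown and 0.01 with control supernatant.

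Of the 6 measured genes of the HSP90 system only Chordc1 passed, and it fell in both supernatants. Of all genes and probes, 17.9% fell in both. Chordc1 encodes a CHORD-domain co-chaperone, also called morgana, and had 2.55 and 2.54 at 6 h, against 3.40 and 3.27 at 3 h with knockdown supernatant. Control supernatant gave 2.31 and 2.51 at 6 h, against 3.28 and 3.21 at 3 h. The arrays of the 2 times did not overlap. The change was -0.79 ± 0.09 with knockdown and -0.83 ± 0.09 with control supernatant (log2, SE, n = 2 each; limma adjusted p = 0.00142 and 0.00115). The inducible HSP90 gene Hsp90aa1 stood at 0.00 with knockdown and -0.02 with control supernatant. Hsp90ab1, its constitutive relative, stood at -0.05 in both. Its level was 7.95 and 7.87 at 6 h, against 8.03 and 7.89 at 3 h with knockdown supernatant, and 7.93 and 7.88 at 6 h, against 7.99 and 7.92 at 3 h with control supernatant, and the arrays of the 2 times overlapped. Stip1, which bridges HSP70 and HSP90, stood at -0.05 with knockdown and -0.03 with control supernatant, and Ahsa1, which stimulates the HSP90 ATPase, at 0.13 in both. With quantile normalization Ahsa1 passed as higher, at 0.25 with knockdown and 0.28 with control supernatant (log2; limma adjusted p = 0.0289 and 0.0191). Fkbp4, an immunophilin of steroid receptor complexes, was at 0.29 with knockdown and 0.06 with control supernatant and did not pass. It passed with knockdown supernatant when either control 6 h array was left out (limma adjusted p = 0.0167).

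**Figure D3:**
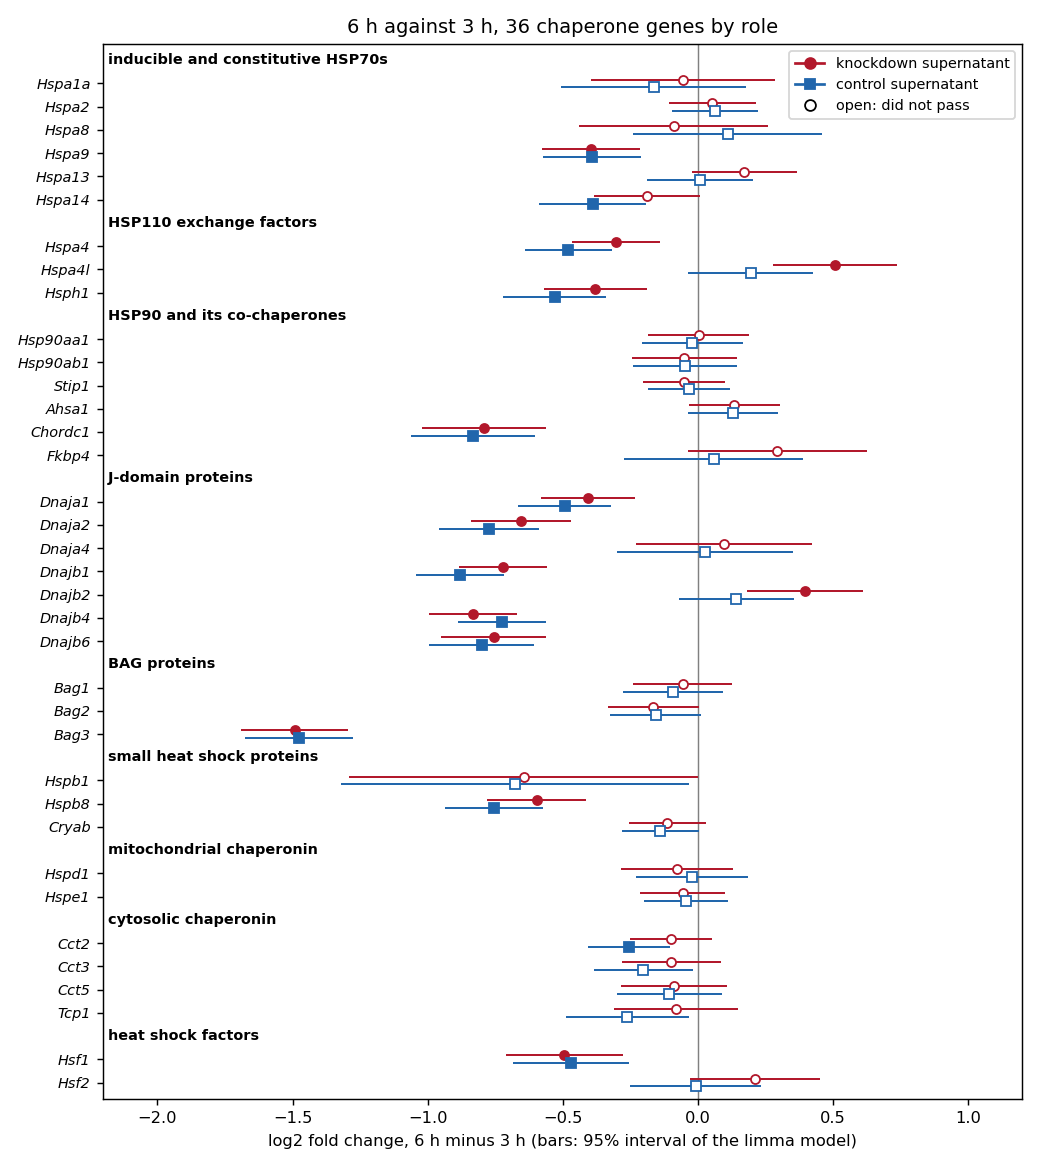
Log2 fold change of 6 h over 3 h for the 36 chaperone genes by role, with knockdown supernatant (circles) and control supernatant (squares), and the 95% interval of the limma model as bars. Filled symbols passed: 12 genes are filled left of 0 with both supernatants, Bag3 farthest at -1.49 and -1.48, while the HSP90 genes and the mitochondrial chaperonin genes lie near 0. Hspb1 is drawn as fitted, although it was above background on 1 knockdown and 0 control arrays at 6 h.

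Small heat shock proteins were represented by Hspb1, Hspb8 and Cryab. Hspb8, the partner of BAG3 in selective autophagy, had 2.83 and 2.94 at 6 h, against 3.51 and 3.46 at 3 h with knockdown supernatant. In control supernatant the level was 2.79 and 2.77 at 6 h, against 3.48 and 3.58 at 3 h. It fell by 0.60 with knockdown and 0.75 with control supernatant on the log2 scale (limma adjusted p = 0.00169 and 0.000744). Hspb1, the small heat shock protein HSP27 in human (HSP25 in mouse), was well above background on 1 of 2 knockdown and 0 of 2 control arrays at 6 h, against all 4 arrays at 3 h. Its level was -5.33 and -5.00 at 6 h, against -4.17 and -4.87 at 3 h with knockdown supernatant, and -5.39 and -5.04 at 6 h, against -4.48 and -4.59 at 3 h with control supernatant. Hspb1 did not pass (limma adjusted p = 0.0994 with knockdown and 0.0898 with control supernatant). No bound above 1-fold could be set with control supernatant, and since the probe entered through the 3 h groups, nothing is read from its change with time. Cryab, alpha-B crystallin, stood at -0.11 with knockdown and -0.14 with control supernatant on its brightest probe without passing. The dimmer Cryab probe passed when probes were tested singly, at -0.23 with knockdown and -0.27 with control supernatant (limma adjusted p = 0.0343 and 0.018).

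Neither gene of the mitochondrial chaperonin passed. Hspd1 stood at -0.08 with knockdown and -0.02 with control supernatant, and Hspe1, which encodes the HSP10 lid, at -0.06 with knockdown and -0.04 with control supernatant (log2). The cytosolic chaperonin, which folds actin and tubulin, was represented by 4 subunit genes. Cct2 fell by 0.26 with control supernatant (limma adjusted p = 0.0185) but stood at 0.06 with spike-in scaling, and it was at -0.10 with knockdown supernatant. The difference between its 2 changes did not pass (limma adjusted p = 0.652). The Cct2 call was also lost without either control 3 h array or the first control 6 h array, with limma adjusted p between 0.0537 and 0.0853. Cct3, Cct5 and Tcp1 lay at -0.08 to -0.10 with knockdown and -0.11 to -0.26 with control supernatant, and none passed. With median scaling all 3 passed as lower with control supernatant, at -0.38 for Cct3, -0.28 for Cct5 and -0.44 for Tcp1 (limma adjusted p = 0.0152, 0.0206 and 0.0348). Without the second control 6 h array Tcp1 passed with control supernatant, at -0.35 (adjusted p = 0.0342).

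Of the 2 heat shock factors, Hsf1 fell in both supernatants, where 17.9% of all genes and probes did, and Hsf2 did not pass. Hsf1, the main activator of the heat shock response, had 2.22 and 2.20 at 6 h, against 2.66 and 2.74 at 3 h with knockdown supernatant. Cells given control supernatant had 2.02 and 2.20 at 6 h, against 2.53 and 2.63 at 3 h. The arrays of the 2 times did not overlap, and Hsf1 transcript fell by 0.49 ± 0.09 with knockdown and 0.47 ± 0.09 with control supernatant (log2, SE, n = 2 each; limma adjusted p = 0.00644 and 0.00745). Hsf2 stood at 0.21 with knockdown and -0.01 with control supernatant. HSF1 is known to be controlled mostly at the level of the protein, which these arrays do not measure.

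The number of chaperone genes that passed for time depended on how the arrays were put on 1 scale. The 12 genes that fell in both supernatants lay below 0 in both under 5 scalings: the 75th percentile, the median, quantile normalization, none and the spike-ins. They had been picked as lower under the first of these, so their shared direction is no separate support. With the spike-ins and control supernatant some lay near 0 without passing, such as Hspa9 at -0.07 and Hsf1 at -0.15. With quantile normalization or the median all 12 passed in both. Median scaling added calls: 21 of the 36 genes passed as lower with control supernatant, against 9191 of all 25804 genes and probes. The 21 were the 14 above with Bag1, Bag2, Cct3, Cct5, Cryab, Tcp1 and the dim Hspb1. With knockdown supernatant median scaling added Hspa14 as lower and lost Dnajb2. That left 13 lower and 1 higher, against 6721 and 3674 of all. Quantile normalization gave 12 lower and 4 higher with knockdown supernatant, against 5568 and 4939 of all, adding Ahsa1 and Hspa13 as higher. With control supernatant quantile normalization gave 12 lower and 2 higher, against 6098 and 4677 of all. It lost Cct2 and Hspa14 and added Ahsa1 and Hspa4l as higher. Without scaling 4 passed as lower with knockdown and 7 with control supernatant, against 1816 and 2870 of all. With spike-in scaling 3 passed as lower with knockdown supernatant (Bag3, Dnajb4 and Dnajb6), against 1754 of all. With control supernatant and spike-in scaling 1 did (Bag3), against 1296 of all. Relative to the 75th percentile the 8 spike-ins themselves differed by a median of -0.10 with knockdown and -0.35 with control supernatant between 6 h and 3 h. With spike-in scaling the median change of all genes and probes was -0.00 with knockdown and 0.25 with control supernatant, and that of the 36 genes 0.01 with knockdown and 0.16 with control supernatant. Bag3 fell by 1.38 with knockdown and 1.16 with control supernatant on that scale.

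**Figure D4:**
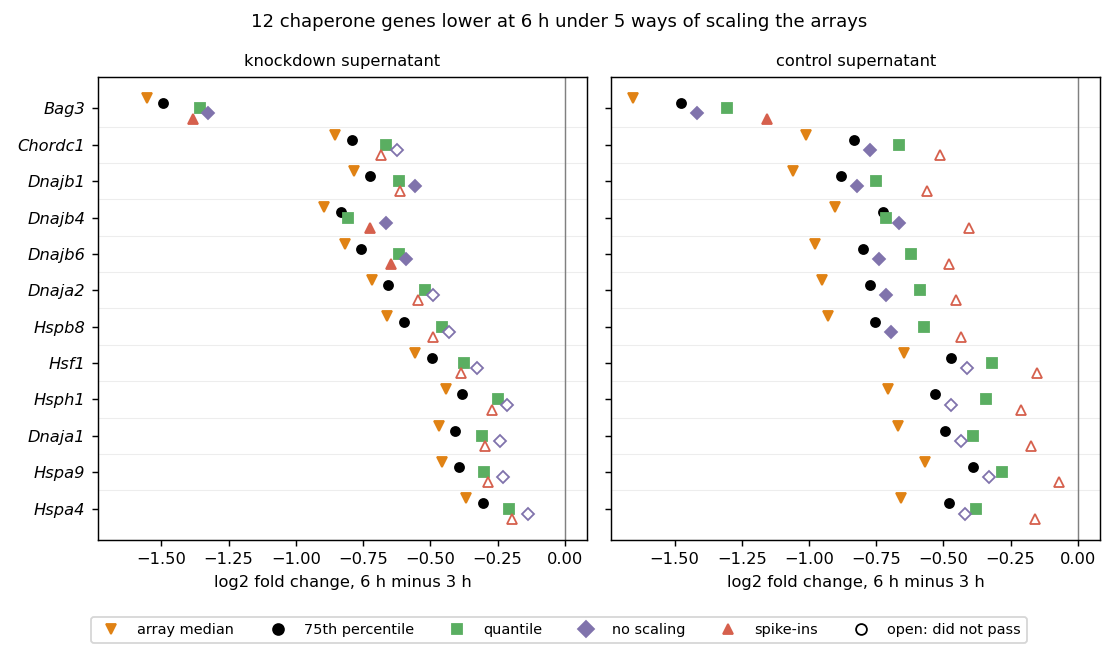
Log2 fold change of 6 h over 3 h for the 12 chaperone genes that fell with both supernatants, under 5 ways of scaling the arrays, with knockdown supernatant on the left and control supernatant on the right. Filled symbols passed at a limma adjusted p under 0.05: all points lie below 0, and with the spike-ins 3 genes on the left and 1 on the right are filled.

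Sequence upstream of these genes was searched for paired heat shock units, since HSF1 acts through them. The motifs were GAANNTTC and TTCNNGAA, each its own reverse complement so that 1 strand covers both, in the 250 bases before the RefSeq start (build GRCm38.p6). Promoters of 31 of the 38 genes were matched by symbol and searched. A pair of units was found in 13 of them (41.9%), against 14.5% of the 27025 genes searched. A gene counted if any of its windows matched, and the 31 genes had 44 windows, against 32851 for the 27025 genes. Overlapping pairs, making 3 alternating units, were found in 3 (9.68%: Dnajb6, Hspd1 and Hspe1), against 0.514%. The TATA motif TATAAA, on either strand, was found in 1 (3.23%: Stip1), against 14.3%. The stretches below show the matches in capitals, 5′ to 3′ on the strand of the gene, first for 4 genes that fell in both supernatants and then for 3 genes that did not pass.
Dnajb6 (chr5:29735837-29735879, plus strand): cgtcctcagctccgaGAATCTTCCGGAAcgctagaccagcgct
Dnajb4 (chr3:152193846-152193874, minus strand): ttcgttcgttcgctgTTCTAGAAagtaca
Hsph1 (chr5:149636347-149636384, minus strand): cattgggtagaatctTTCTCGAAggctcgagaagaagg
Dnaja1 (chr4:40722329-40722366, plus strand): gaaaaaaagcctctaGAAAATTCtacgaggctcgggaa
Hspe1 (chr1:55088044-55088091, plus strand): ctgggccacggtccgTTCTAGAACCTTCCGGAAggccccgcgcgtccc
Hspa1a (chr17:34972238-34972275, minus strand): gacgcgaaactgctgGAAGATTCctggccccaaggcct
Hspb1 (chr5:135887787-135887844, plus strand): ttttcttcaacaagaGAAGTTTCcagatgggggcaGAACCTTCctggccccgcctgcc

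The Hspe1 stretch is shared, on the opposite strand, by Hspd1, whose gene starts next to it in the other direction. The Hspa1a stretch is identical in Hspa1b (chr17:34959320-34959357, minus strand). In the counts of genes with a match, the members of each such pair are counted separately. Among the 10 promoters of genes that fell in both supernatants, 4 held a pair of units, the 4 printed first. Among the 15 promoters of genes that passed in neither, 7 did: Cct5, Dnaja4, Fkbp4, Hspa1a, Hspb1, Hspd1 and Hspe1. Hspb1 is counted there although nothing is read from its change with time. The windows of Bag3 and Dnajb1, which fell in both supernatants, held no match, which says only that these letters are not in that window. A match is a description of the sequence and not a shown binding site.

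Other genes of the same folding network were counted for comparison, on a list of 54 further cytosolic and mitochondrial genes of which 50 were measured. Between supernatants only Dnajc2, a ribosome-associated J-domain protein, passed at 6 h, 0.41 ± 0.06 higher with knockdown supernatant (log2, SE, n = 2 each; limma adjusted p = 0.0394). Between 6 h and 3 h, 12 of the 50 fell and 3 rose with knockdown supernatant, where 22.6% of all genes and probes fell and 17.5% rose. With control supernatant 17 of the 50 fell and 3 rose, where 23.4% of all fell and 16.3% rose. Bag5, another BAG protein of HSP70, fell by 1.04 with knockdown and 1.07 with control supernatant. The mitochondrial nucleotide exchange factor Grpel1, which serves Hspa9, fell by 0.49 with knockdown and 0.50 with control supernatant. Grpel2, its paralog, fell by 0.48 with knockdown and 0.61 with control supernatant. Tomm70a, an import receptor that takes clients from HSP70 and HSP90, fell by 0.62 with knockdown and 0.86 with control supernatant. Hspa12b, a distant HSP70 relative known from endothelium, rose by 1.83 with knockdown and 1.73 with control supernatant, and Dnajb12, a membrane-anchored J-domain protein, by 0.77 with knockdown and 0.73 with control supernatant.

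Chaperones of the endoplasmic reticulum, which answer mainly to the unfolded protein response, were counted as a second comparison. Of 16 measured genes 0 passed between supernatants at either time, in the average or in the difference of effects. Between 6 h and 3 h, 5 of the 16 fell with knockdown supernatant, against 22.6% of all genes and probes, and 6 fell with control supernatant, against 23.4% of all. None of the 16 rose in either, where 17.5% of all rose with knockdown and 16.3% with control supernatant. Dnajb9, a J-domain protein of this compartment, fell by 1.42 with knockdown and 1.54 with control supernatant. Manf, a secreted stress protein, fell by 0.72 with knockdown and 0.75 with control supernatant, Hspa5, the HSP70 of this compartment, by 0.61 with knockdown and 0.55 with control supernatant, and Dnajc3, its J-domain partner, by 0.39 with knockdown and 0.52 with control supernatant.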

How the data were processed

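Total RNA of 8 cultures of 3T3-L1 cells, grown in 10% serum before differentiation, was labelled with Cy3 per the labels' protocols. The authors' deposited scanner output lists each spot's processed signal. Per the file headers this is a linear intensity after subtraction of background and removal of spatial trends. The submitters' processing notes name Agilent Feature Extraction 10.7.3.1. The deposited log2 value table differed from these signals only by 1 constant per array and served as an alternative.

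Control spots and 163 to 319 outlier spots per array were left out, log2 signals were set relative to each array's 75th percentile (signals of 470 to 614), and replicate spots were averaged. Names came from RefSeq (assembly GRCm38.p6), by transcript for 27235 of 55681 probes and by symbol or synonym for 20. The 28426 without a name were tested as probes. The brightest probe stood for a gene. A model of 4 group means was fitted to all 8 arrays with limma 3.58.1 in R 4.3.3 (4 residual and 1.74 prior degrees of freedom), tested on simulated data, with Benjamini-Hochberg adjustment over 25804 genes and probes in each of 6 comparisons. Errors are standard errors of that model. The number of arrays limits the precision.

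The genes and lists were chosen with earlier results of these data known. Genes named with full statistics were those that passed (up to 12 per comparison), the 5 with the smallest p in a comparison, and the inducible chaperones, their constitutive relatives and the heat shock factors. Of other lists, up to 4 genes with the smallest p in a comparison were named. Alternatives changed the scaling, background correction, probe filter, probe choice, array weights, bright patches, replicate block and arrays used. Spike-in scaling was chosen after seeing the data. Tables were made with pandas 2.3.3 in Python 3.11.15 and figures with matplotlib 3.10.9. Protein sequences were not used here.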

Additional observations from a re-analysis of the deposited data

How the results depend on the processing

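Bag3 passed for time in both supernatants under each of the 21 alternatives run, and Dnajb4 and Dnajb6 did so with knockdown supernatant. Without scaling, 4 chaperone genes passed for time with knockdown and 7 with control supernatant, where 5501 and 5736 of all 25804 did. With spike-in scaling 3 passed with knockdown and 1 with control supernatant, where 4673 and 5681 of all did. Cct2 then turned to 0.064 with control supernatant. Averaging the probes of a gene turned Hspa4 to 0.14 with control supernatant and ended the time calls of Dnaja1 in both supernatants and of Hspa4 and Dnajb2 with knockdown supernatant. Without a probe filter 10 genes passed for time with knockdown and 11 with control supernatant, where 6972 and 7082 of all 49094 did. Leaving out each array in turn gave 11 to 15 genes for time with knockdown and 12 to 15 with control supernatant. Between supernatants median scaling gave 4 genes at 6 h and 1 for the average (Dnajb6), and leaving out each array in turn gave 0 to 2 at 6 h. The other alternatives run left the supernatant counts at 0, except that a fit of only the groups compared could not be made for the average and the difference of effects.

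Median scaling moved the median difference of all genes and probes by more than 0.1, to 0.18 at 6 h, 0.12 for the average, 0.13 for the difference of effects and -0.25 for time with control supernatant. At 3 h, 58 higher and 6 lower calls over all genes and probes became 9 and 3 with spike-in scaling. For the average, 543 and 247 became 1349 and 126 with median scaling and 98 and 75 with spike-in scaling. At 6 h, 392 higher and 181 lower calls over all genes and probes became 1237 and 114 with median scaling, 47 and 40 without scaling and 54 and 108 with spike-in scaling. For time with control supernatant, 4212 higher and 6039 lower calls became 2809 and 9191 with median scaling and 4385 and 1296 with spike-in scaling. For time with knockdown supernatant, 4526 higher and 5825 lower calls became 3685 and 1816 without scaling and 2919 and 1754 with spike-in scaling. Over all alternatives, calls among all genes and probes ranged from 0 to 308 at 3 h (64 in the fit reported), 0 to 1958 at 6 h (573), 74 to 1997 for the average (790), 0 to 295 for the difference of effects (0), 4673 to 12313 for time with knockdown (10351) and 5681 to 12000 with control supernatant (10251).

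Same-numbered arrays deviated together with correlations of only -0.05 to 0.09 across genes, which gave no sign of pairing by replicate number. The labels do not say what a number shares, and something shared that moves few genes would not show in these correlations. With the replicate block 14 chaperone genes passed for time with each supernatant, where 10229 of all 25804 did with knockdown and 10020 with control supernatant. Between supernatants 0 chaperone genes passed, against 0 of all at 3 h, 213 at 6 h and 505 for the average. No call of the chaperone genes changed. With 2 arrays per group, the median standard error of a supernatant difference among the 36 genes was 0.076 on the log2 scale at 6 h, and Hspb1 was limited by signal over background.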
